A study of Homo sapiens with 8 samples.

Results

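Chromosome 21 held 4362 of the 327994 genomic regions where sonicated DNA of H1, an established human embryonic stem cell line, gave more or less signal with an RNA oligo than without one. The members are all regions of the 6 deposited lists placed on chromosome 21, 2903 captured and 1459 control. In the study, biotinylated RNA oligos, MEG3 TFR1 and MEG3 TFR2 from the RNA MEG3 and GATA6-AS TFR1 from the RNA GATA6-AS, were each mixed with RNA-free H1 DNA, the complexes were pulled down on streptavidin beads, and the DNA released by RNase was sequenced; the control had the beads and no oligo. Each of the 4 groups had 2 libraries from independent experiments, 8 in all, and every group used DNA of the same cell line with no protein and no chromatin. A captured region had more signal with the oligo than without it, and a control region more signal without it; each region carries 1 log2 ratio of oligo over no oligo, the authors' value. Neither read totals nor values of single libraries are in the lists. Depth and the spread between libraries are therefore unknown, and each number below is a property of a list. All 3 comparisons used the same no-oligo libraries. Unnamed triples of values run from MEG3 TFR1 over MEG3 TFR2 to GATA6-AS TFR1.

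The chromosome was chosen by its counts of captured and control regions: captured regions per control region are fewer on it than on any other autosome for both MEG3 oligos. Those counts are given as a description, with no test.

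MEG3 is a maternally expressed long noncoding RNA, and GATA6-AS is transcribed opposite to GATA6, the gene of an endoderm and heart transcription factor. In an RNA-DNA triplex the RNA strand occupies the major groove of a DNA duplex and pairs with its purine-rich strand through Hoogsteen bonds. Chromosome 21 is acrocentric: its short arm carries ribosomal RNA genes, satellite DNA and segmental duplications that recur on the other acrocentric chromosomes. On its long arm a gene-poor, AT-rich proximal part is followed by a gene-rich distal part, and an additional copy of the chromosome causes Down syndrome.

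The promoter sequences below are examples from gene starts of the chromosome that lie partly in captured regions, picked for high ratios. Of 38 genes named by a rule, 35 had a promoter window, 250 bases before to 50 after a transcription start. None of those 35 had its whole window inside a captured region. The windows printed are therefore the 2 per oligo with the highest log2 ratio among those with at least 100 bases in a captured region, chosen after their values were seen. The sequences come from RefSeq on GRCh38.p14, run 5′ to 3′ on the gene's strand, stop at the last base before the start, and have the bases inside the captured region in capitals. Captured with MEG3 TFR1 were the window of LOC105372841 (chr21:45978255-45978504, plus strand) in a region with a log2 ratio of 3.01, and that of LOC107985513 (chr21:38351857-38352106, plus strand) in a region with 2.06; both are long noncoding RNA genes. Captured with MEG3 TFR2 were the window of KRTAP19-8, a keratin-associated protein gene (chr21:31038477-31038726, minus strand), with 1.54, and that of CBR1-AS1, a noncoding RNA gene (chr21:36126641-36126890, minus strand), with 1.26. Captured with GATA6-AS TFR1 were the window of COL6A2-DT, a transcript divergent from the collagen gene COL6A2 (chr21:46097646-46097895, minus strand), with 2.76, and that of DYRK1A, a kinase gene of the Down syndrome region (chr21:37366523-37366772, plus strand), with 2.48.
LOC105372841: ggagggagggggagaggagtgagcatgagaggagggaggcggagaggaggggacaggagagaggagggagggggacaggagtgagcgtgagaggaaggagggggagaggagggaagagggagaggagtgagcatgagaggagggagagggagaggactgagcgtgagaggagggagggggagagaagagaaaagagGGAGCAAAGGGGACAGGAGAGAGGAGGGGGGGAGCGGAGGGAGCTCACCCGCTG
LOC107985513: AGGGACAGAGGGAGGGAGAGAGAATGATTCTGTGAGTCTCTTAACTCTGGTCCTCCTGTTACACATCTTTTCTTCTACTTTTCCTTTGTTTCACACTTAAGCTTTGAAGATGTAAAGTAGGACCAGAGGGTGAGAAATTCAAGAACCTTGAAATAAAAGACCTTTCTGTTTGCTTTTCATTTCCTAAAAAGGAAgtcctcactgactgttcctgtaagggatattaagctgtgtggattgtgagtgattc
KRTAP19-8: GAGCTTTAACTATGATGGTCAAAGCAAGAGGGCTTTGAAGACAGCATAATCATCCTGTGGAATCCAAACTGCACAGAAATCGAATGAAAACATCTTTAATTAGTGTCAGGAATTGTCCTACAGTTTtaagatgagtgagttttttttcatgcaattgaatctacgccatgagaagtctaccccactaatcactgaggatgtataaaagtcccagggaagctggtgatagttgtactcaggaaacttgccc
CBR1-AS1: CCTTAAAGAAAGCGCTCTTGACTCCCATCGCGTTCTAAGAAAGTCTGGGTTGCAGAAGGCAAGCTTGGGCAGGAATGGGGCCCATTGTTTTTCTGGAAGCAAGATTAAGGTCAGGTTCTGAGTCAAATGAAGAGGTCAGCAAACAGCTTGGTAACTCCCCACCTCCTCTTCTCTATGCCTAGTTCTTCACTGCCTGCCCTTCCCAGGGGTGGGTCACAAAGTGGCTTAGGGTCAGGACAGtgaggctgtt
COL6A2-DT: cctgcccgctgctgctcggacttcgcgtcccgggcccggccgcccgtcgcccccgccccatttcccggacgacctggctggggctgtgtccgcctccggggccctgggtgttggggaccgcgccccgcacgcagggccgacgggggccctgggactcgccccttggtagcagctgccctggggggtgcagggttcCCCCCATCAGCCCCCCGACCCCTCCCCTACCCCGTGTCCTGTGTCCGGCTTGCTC
DYRK1A: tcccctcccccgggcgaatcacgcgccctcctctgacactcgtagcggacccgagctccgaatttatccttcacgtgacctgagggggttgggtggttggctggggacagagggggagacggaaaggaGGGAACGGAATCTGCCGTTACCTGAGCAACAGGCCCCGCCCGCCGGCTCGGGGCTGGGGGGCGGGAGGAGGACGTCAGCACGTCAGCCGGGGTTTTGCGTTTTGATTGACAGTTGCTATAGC
The LOC105372841 window was 89.2% purine and had a run of 39 purines, which lay outside the captured part; the longest run inside the captured part had 20. The LOC107985513 window held a run of 18 purines, all of them captured. The longest purine or pyrimidine run inside the captured part had 7 bases at KRTAP19-8, 13 at CBR1-AS1, and 10 each at COL6A2-DT and DYRK1A. The letters GAGAGA, searched on both strands, stood in the captured part at both MEG3 TFR1 windows and at none of the other 4.

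Over all 488 promoter windows of the chromosome, from 388 genes, 10 (2.05%) overlapped a MEG3 TFR1 captured region, 8 (1.64%) a MEG3 TFR2 one and 40 (8.20%) a GATA6-AS TFR1 one. Over the 35085 windows of all chromosomes the shares were 6.29%, 3.04% and 14.0%. GAGAGA or its complement was in 6 of the 10 MEG3 TFR1 windows, in none of the 8 MEG3 TFR2 windows and in 11 of the 40 GATA6-AS TFR1 windows (27.5%). It was in 18.9% of the 433 chromosome 21 windows with no captured region and in 22.4% of all windows. A second motif, GGAGGA on either strand, which may share a window with the first, was in 2 of 10, 2 of 8 and 19 of 40 windows, against 36.6% of all windows. A run of at least 15 purines or pyrimidines was present in 4 of 10, 0 of 8 and 4 of 40, against 19.9% of all windows. The MEG3 counts are too small to set against those shares. Median GC was 48.0%, 50.8% and 61.8% in captured windows, against 56.3% where no region was captured. On the other chromosomes it was 59.0%, 58.0% and 63.3% in captured windows, against 57.0% in windows with no captured region. The GC quartiles of the 10 MEG3 TFR1 windows of chromosome 21 were 45.6% and 56.75%. Those of its 8 MEG3 TFR2 windows were 45.8% and 61.75%. Both spans include the 56.3% of its windows with no captured region, so no direction is drawn from these few windows.

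Of 21 microRNA hairpins on the chromosome, 2 overlapped a captured region, both of GATA6-AS TFR1 alone. The share over all hairpins of the genome was not computed, so this count cannot be called high or low. MIR3197 lies at chr21:41167564-41167586 (its mature sequence, plus strand) in a region that also borders BACE2, with a log2 ratio of 2.29. MIR6815 lies within the collagen gene COL18A1, its 5p product at chr21:45478271-45478293 and its 3p product at chr21:45478306-45478326 (plus strand), in a region with a log2 ratio of 1.00. The mature sequences, from the same RefSeq table, have their seeds, bases 2 to 8, in capitals, and no seed was shared.
hsa-miR-3197: gGAGGCGCaggcucggaaaggcg
hsa-miR-6815-5p: uAGGUGGCgccggaggagucauu
hsa-miR-6815-3p: uGGCUUCUcuugcacacccag
These are positions of DNA; no microRNA was measured.

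MEG3 TFR1 had 949 captured and 408 control regions on chromosome 21, MEG3 TFR2 733 and 333, and GATA6-AS TFR1 1221 and 718. There were thus 2.33, 2.20 and 1.70 captured regions per control region. On the other 21 autosomes the medians were 6.66, 6.55 and 2.59, and the lowest values were 4.08 and 4.80 on chromosome 4 for the MEG3 oligos and 1.51 on chromosome 18 for GATA6-AS TFR1. Per 1 Mb bin that held any region, chromosome 21 had 23.1, 17.9 and 29.8 captured regions, against medians of 30.7, 26.8 and 38.1 on the other autosomes, 4, 2 and 8 of which had fewer. It had 9.95, 8.12 and 17.5 control regions per bin, against medians of 4.67, 4 and 13.7, and 21, 21 and 17 of the others had fewer. Control regions thus stood further from the other autosomes than captured regions did. Control regions were also wider than elsewhere: at least 1000 bp for 14.95%, 21.02% and 14.76% of them, against 1.81%, 2.05% and 0.814% of control regions on the rest of the genome.

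**Figure D1:**
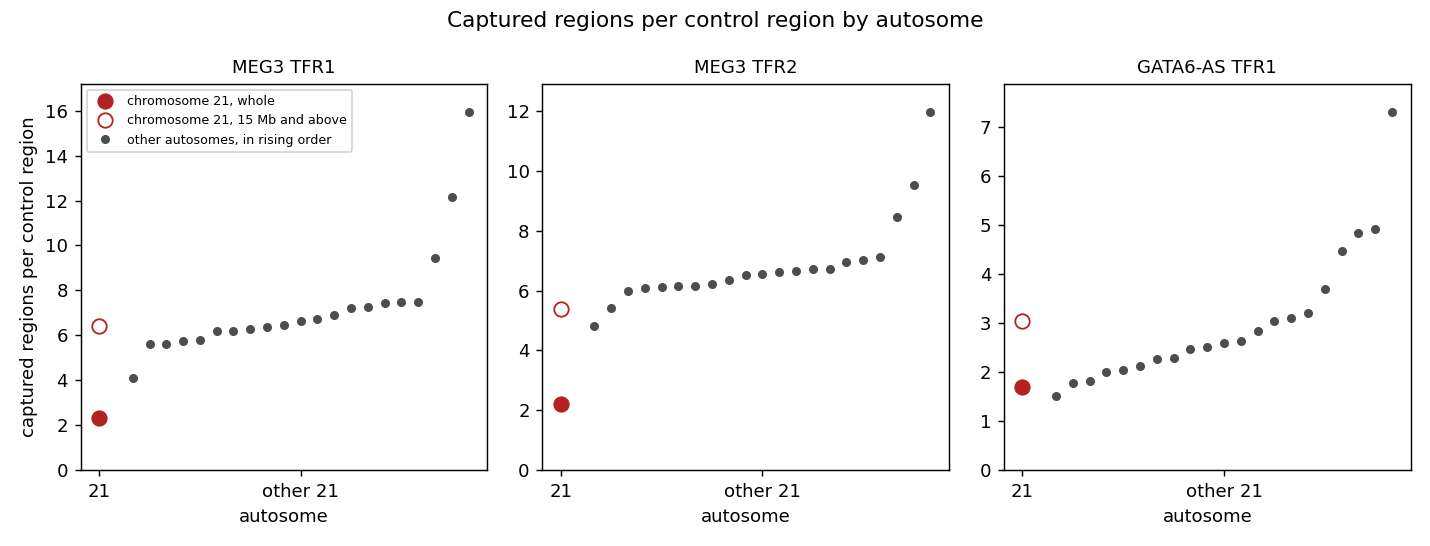
Captured regions per control region (y axis) for each oligo, with chromosome 21 at the left of each panel (filled: whole chromosome; open: positions at 15 Mb and above) and the other 21 autosomes as dots in rising order. The filled points are at 2.33, 2.20 and 1.70 and the open points at 6.42, 5.38 and 3.04.

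Along the chromosome, a larger share of control than of captured regions lay towards the short-arm end. Regions ran from position 5216651 to 46673600 and occupied 41 bins of 1 Mb. Below 15 Mb, a stretch with the short arm, the centromere and the first part of the long arm, lay 121 of the 949 captured regions of MEG3 TFR1 (12.8%) and 279 of its 408 control regions (68.4%). MEG3 TFR2 had 12.7% of its captured and 64.3% of its control regions there, and GATA6-AS TFR1 8.76% and 48.9%. The captured regions per control region were 0.434, 0.435 and 0.305 in that stretch. From 15 to 31 Mb, the gene-poor part, they were 3.63, 3.75 and 1.12, and above 31 Mb they were 7.16, 5.88 and 3.54. Taken from 15 Mb on, the chromosome had 6.42 (828 and 129 regions), 5.38 (640 and 119) and 3.04 (1114 and 367), with 9, 1 and 13 of the other 21 autosomes, counted whole, lower. When each of those was counted without its densest control bin, 5, 1 and 13 were lower. The boundary at 15 Mb was placed with earlier results known and that at 31 Mb after the bins were seen.

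A single bin, 10 to 11 Mb, next to the centromere, held 57, 31 and 38 captured regions of the 3 oligos and 169 (41.4%), 138 (41.4%) and 192 (26.7%) of their control regions. On no other autosome did the densest bin hold more than 12.9%, 10.5% and 7.89% of the control regions, each on chromosome 22, which is also acrocentric. When the densest control bin was left out on each autosome, chromosome 21 had 3.73, 3.60 and 2.25 captured regions per control region, and 0, 0 and 6 of the others were lower. Within the bin, captured regions covered 47.8, 18.8 and 24.3 kb, and control regions, which ran from 10270051 to 10814550, covered 138, 135 and 199 kb. From 10.6 to 10.7 Mb there were 4, 1 and 3 captured and 48, 32 and 48 control regions. From 10.7 to 10.8 Mb, MEG3 TFR1 had 20 captured and 34 control regions, and GATA6-AS TFR1 0 and 48. The genes of the bin include TPTE, which encodes a testis-specific transmembrane phosphatase, and the pseudogene BAGE2. The longest stretch without any region, 2151 kb from 10814550 to 12966001, followed directly. On its far side, the 12 to 13 Mb bin had 0, 1 and 0 captured and 20, 16 and 28 control regions.

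**Figure D2:**
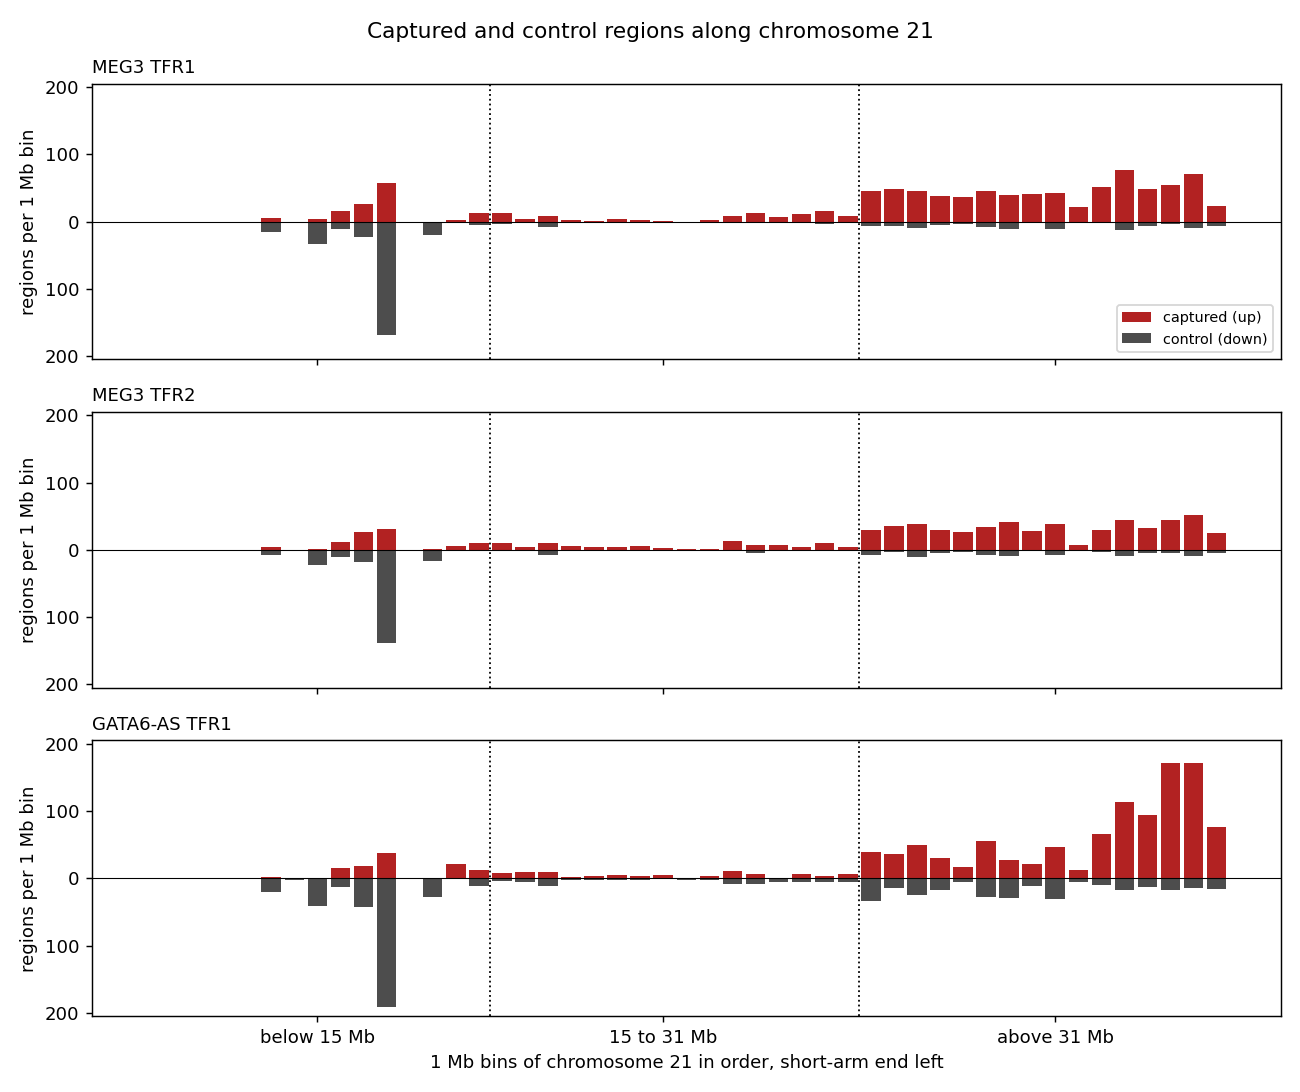
Number of captured regions (bars up) and control regions (bars down) in each 1 Mb bin of chromosome 21 in order, short-arm end at the left, for each oligo; dotted lines stand at 15 and 31 Mb. The deepest control bars, 169, 138 and 192 regions, are in the same bin for all 3 oligos, and the highest captured bars lie above 31 Mb.

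The next densest control bins of each oligo after it were 7 to 8 Mb and 9 to 10 Mb, in either order, again on the short arm. The bin from 9 to 10 Mb had 26, 26 and 18 captured regions and 23, 18 and 42 control regions, so captured regions outnumbered control regions for both MEG3 oligos there. The bin from 8 to 9 Mb had more captured than control regions for every oligo, with 15, 12 and 15 captured and 11, 10 and 13 control. It includes the reference copies of the ribosomal RNA genes, whose transcript is processed to the large and small ribosomal RNAs. The stretch around RNA45SN2, RNA45SN3 and RNA45SN1 held 7 captured regions of MEG3 TFR1, 7 of MEG3 TFR2 and 6 of GATA6-AS TFR1. It held no control region of any oligo, and none of its captured regions lay inside the transcribed 45S unit. The locus with the highest minimum log2 ratio over the 3 oligos on the chromosome was among them, chr21:8219951-8220350, 649 bp from the end of RNA45SN2. Its ratios were 3.70 with MEG3 TFR1, 2.69 with MEG3 TFR2 and 2.97 with GATA6-AS TFR1. Ribosomal RNA genes and their spacers are nearly identical on all acrocentric chromosomes, and how reads with several matching places were assigned is not given in the sources used here, so the placement of these regions, as of those shared with other duplicated DNA below 15 Mb, is uncertain.

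Regions below 15 Mb also differed from the others in form. Captured regions were 550, 450 and 400 bp wide at the median below 15 Mb and 350, 350 and 400 bp above 31 Mb. Control regions had median widths of 550, 700 and 600 bp below 15 Mb, 200, 250 and 250 bp from 15 to 31 Mb and 300, 250 and 300 bp above 31 Mb. All 61, 70 and 106 control regions of at least 1000 bp on the chromosome lay below 15 Mb, up to a width of 6200 bp with GATA6-AS TFR1. The median log2 ratios of captured regions were lower below 15 Mb, at 0.99, 1.05 and 1.20, than above 31 Mb, at 1.43, 1.40 and 1.32. Control ratios were likewise nearer 0 below 15 Mb, at -1.37, -0.86 and -1.25, than above 31 Mb, at -1.53, -1.48 and -1.57.

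**Figure D3:**
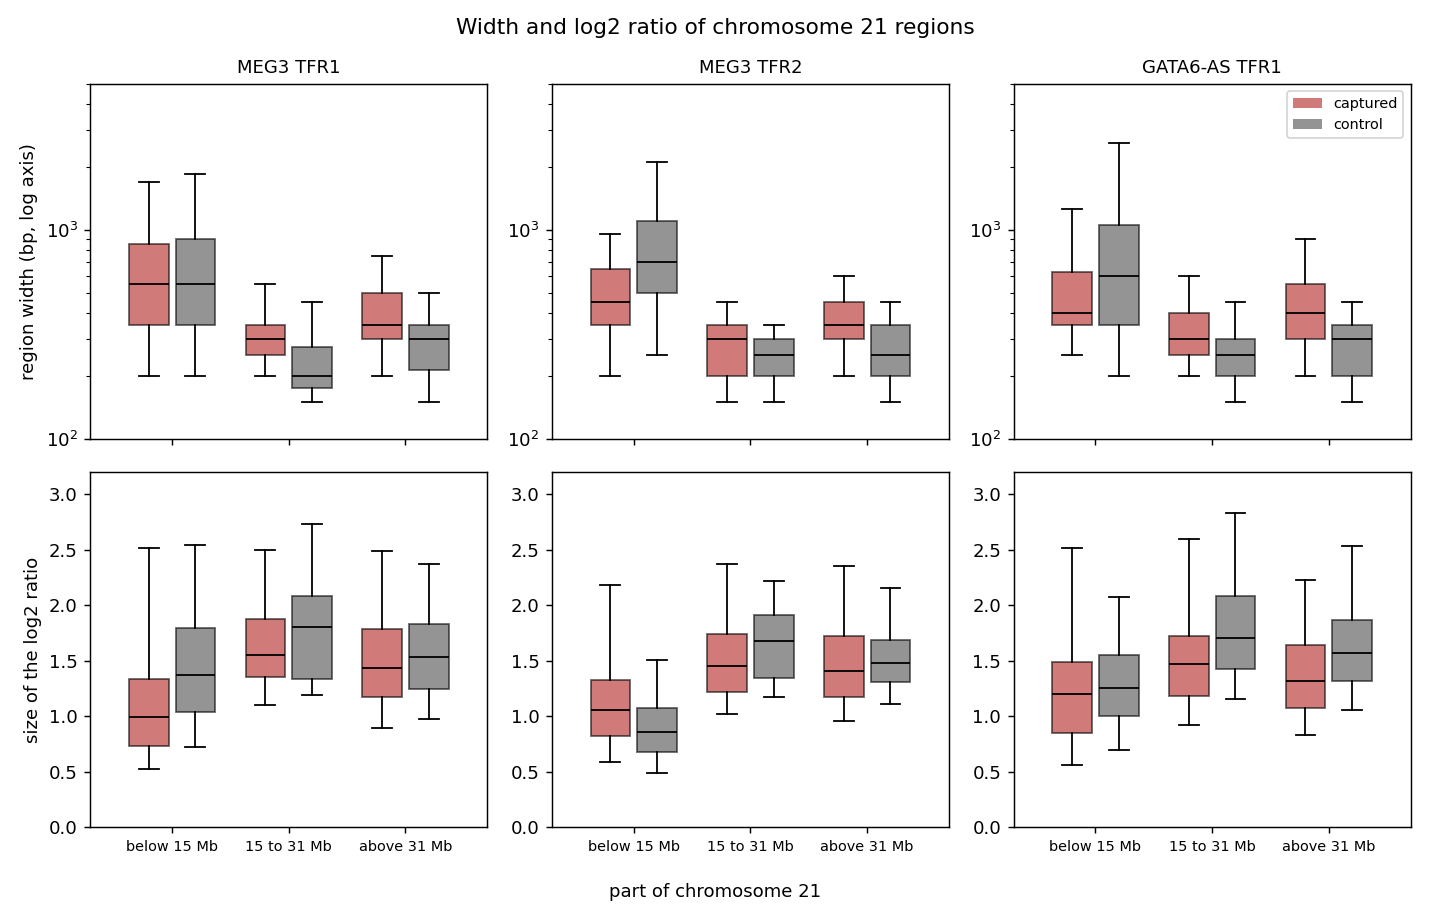
Region width (upper row, bp on a log axis) and size of the log2 ratio (lower row) of captured and control regions in 3 parts of chromosome 21, for each oligo; boxes span the quartiles with the median as a line, and whiskers the 5th to 95th percentiles of regions. Control regions are widest below 15 Mb, with medians of 550, 700 and 600 bp.

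Below 15 Mb, a larger share of captured regions had a control region of the same oligo within 100 bp than elsewhere. In number, such captured regions were 24, 17 and 19 below 15 Mb and 167, 116 and 580 on the other autosomes. Below 15 Mb, 19.8% of MEG3 TFR1, 18.3% of MEG3 TFR2 and 17.8% of GATA6-AS TFR1 captured regions were within 100 bp of a control region of the same oligo. Above 31 Mb the shares were 0.137%, 0 and 0.875%, and on the other autosomes 0.188%, 0.159% and 0.560%. The same DNA was also listed in opposite directions for different oligos. Of the MEG3 TFR1 captured regions below 15 Mb, 38.02% overlapped a GATA6-AS TFR1 control region and 20.7% a MEG3 TFR2 control region. From 15 Mb on these shares were 0.483% and 0, against 0.522% and 0.136% on the other autosomes. MEG3 TFR2 captured regions below 15 Mb overlapped a GATA6-AS TFR1 control region in 22.6% of cases. GATA6-AS TFR1 captured regions overlapped control regions of MEG3 TFR1 and MEG3 TFR2 in 11.2% and 12.1%. Control regions were also denser there: they covered 202.35, 190.9 and 308.6 kb below 15 Mb and 37.15, 32.65 and 102.05 kb from 15 Mb on. Whether the shares within 100 bp and the overlap shares exceed what that density alone would give was not tested.

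**Figure D4:**
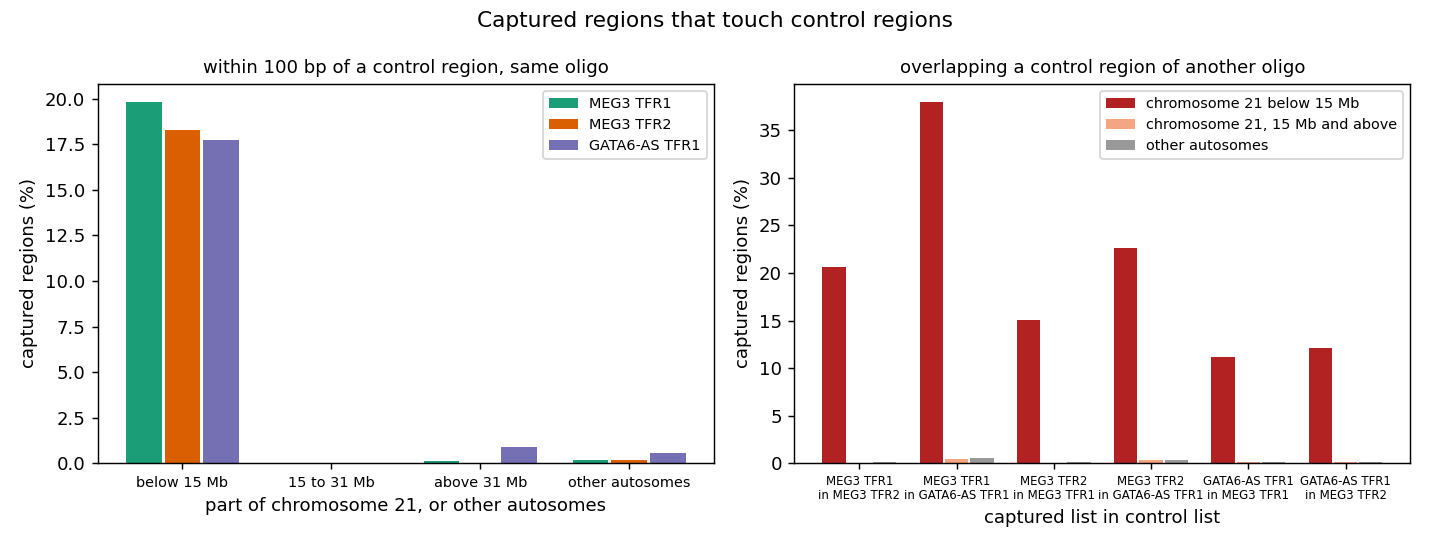
Share of captured regions (y axes, %) within 100 bp of a control region of the same oligo (left) and overlapping a control region of another oligo by at least 1 bp (right). Bars below 15 Mb of chromosome 21 reach 17.8% to 19.8% on the left and 11.2% to 38.02% on the right, and all other bars are under 1%.

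On chromosome 21, 23.6%, 32.3% and 21.3% of captured regions overlapped a captured region of another oligo. The other autosomes gave 27.4%, 35.6% and 28.2%. Below 15 Mb these captured shares were 40.5%, 54.8% and 36.4%, and from 15 Mb on 21.1%, 29.1% and 19.8%. Control regions overlapped between oligos far more, at 88.0%, 91.0% and 52.0%, against 81.6%, 87.3% and 36.1% on the other autosomes. From 15 Mb on the control shares were 82.2%, 88.2% and 36.2%, close to those of the other autosomes. Below 15 Mb they were 90.7%, 92.5% and 68.4%. The no-oligo libraries are common to all 3 control lists. Joined over the oligos, the captured regions formed 2505 loci, of which 2182 came from 1 oligo, 273 from a pair and 50 from all 3. Of those 50, 17 lay below 15 Mb, which is 7.11% of the 239 loci there. Between 15 and 31 Mb there were 0 of 279, and above 31 Mb 33 of 1987 (1.66%). Captured regions that overlapped those of both other oligos made up 4.74%, 6.00% and 4.095% of the chromosome 21 lists. On the other autosomes they made up 5.91%, 7.13% and 5.42%. After the ribosomal locus, the highest minimum ratios belonged to chr21:39085501-39085900, 968 bp from LINC02943 (2.00, 2.32 and 1.80 in the order MEG3 TFR1, MEG3 TFR2, GATA6-AS TFR1), and to chr21:42286551-42287700 in ABCG1, the gene of a cholesterol exporter (1.93, 1.74 and 2.25). LINC00334 (1.90, 1.63 and 1.91) and the kinase gene HUNK (1.58, 2.36 and 2.24) followed among loci inside genes.

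Captured regions above 31 Mb were spread over every bin, with 21 to 76 per bin for MEG3 TFR1, 7 to 52 for MEG3 TFR2 and 13 to 171 for GATA6-AS TFR1. The densest captured bins were 42 to 43 Mb for MEG3 TFR1 (76), 45 to 46 Mb for MEG3 TFR2 (52), and 44 to 45 and 45 to 46 Mb for GATA6-AS TFR1 (171 each). Those bins held 54 and 70 of the MEG3 TFR1 regions and 44 and 52 of the MEG3 TFR2 regions. The bin counts ranked alike between oligos, with Spearman rho over 41 bins of 0.93 for the MEG3 pair and 0.89 for GATA6-AS TFR1 with each MEG3 oligo. Over the same bins, captured regions and protein-coding genes per bin had rho of 0.61, 0.58 and 0.57. The sign differed by part: over the 9 bins below 15 Mb rho was -0.22, -0.41 and -0.34. Over the 16 bins from 15 to 31 Mb it was 0.76, 0.63 and 0.41, and over the 16 above 31 Mb 0.46, 0.48 and 0.68. The lists share the no-oligo libraries and the bins share mappable length and base composition, so these are descriptions. Captured and control regions per bin had rho of 0.47, 0.49 and 0.51. The bin from 30 to 31 Mb did not go with gene number: it has 34 protein-coding genes and had 8, 5 and 6 captured regions, whereas the 44 to 45 Mb bin has 32 genes and had 54, 44 and 171.

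Both of those bins hold clusters of keratin-associated protein genes, which encode matrix proteins of the hair shaft. A gene was counted as having a captured region when 1 lay within 1 kb of either of its ends, its edge. In the proximal cluster, 33 genes over 757 kb, the counts were 0, 1 and 0, the single gene being KRTAP19-8 with MEG3 TFR2. In the distal cluster, 16 genes over 159 kb, the counts were 7, 3 and 10. Both clusters together had a captured edge at 14.3%, 8.16% and 20.4% of their 49 genes, against 10.6%, 10.1% and 33.9% of the other 189 protein-coding genes of the chromosome and 28.2%, 22.3% and 46.9% of all protein-coding genes. The genes of a cluster are close relatives, so regions beside them may share sequence. The highest ratios were at KRTAP10-12 with MEG3 TFR2 (2.32), KRTAP10-1 with GATA6-AS TFR1 (2.25) and KRTAP12-1 with MEG3 TFR1 (2.24, at -762 bp from its start).

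Of 238 protein-coding genes on the chromosome, 27 (11.3%) had a MEG3 TFR1 captured region at an edge, 23 (9.66%) a MEG3 TFR2 one and 74 (31.1%) a GATA6-AS TFR1 one. Over the 19903 protein-coding genes of the table the shares were 28.2%, 22.3% and 46.9%. The chromosome's shares ranked 1, 2 and 3 from the lowest of the 22 autosomes. All 3 oligos had a captured region at 4 of the genes, and 145 had none. A control region at an edge was listed for 3, 2 and 11 genes, against 2.33%, 2.22% and 5.91% of all genes. The 24 genes below 15 Mb accounted for 1, 0 and 2 of the captured genes, and the 59 from 15 to 31 Mb for 2, 1 and 6. Among the 138 genes above 31 Mb other than keratin-associated protein genes, 12.3%, 13.0% and 40.6% had a captured edge, so the gene-rich end also lay below all 3 genome shares. By region rather than by gene, 3.27%, 2.46% and 6.80% of captured regions had their midpoint within 1 kb of a protein-coding gene end. On the other autosomes the shares were 6.01%, 5.57% and 10.9%.

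The 5 highest edge ratios of MEG3 TFR1 were at PIGP, SLX9, KRTAP12-1, PAXBP1 and OLIG2. PIGP, whose product acts in the first step of GPI anchor synthesis, had 3.42, a ratio of 10.7, with the region's midpoint 678 bp after a start. SLX9, a ribosome biogenesis factor gene, had 2.70, PAXBP1 2.07, and OLIG2, the gene of an oligodendrocyte and motor neuron transcription factor, 1.97. OLIG2 and SLX9 also had GATA6-AS TFR1 regions (1.68 and 1.77), and PIGP and PAXBP1 no edge region of another oligo.

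With MEG3 TFR2 the order was TFF1, KRTAP10-12, TMEM50B, RIPPLY3 and RUNX1. TFF1, which encodes a trefoil peptide of the gastric mucosa, had 2.52 with MEG3 TFR2; its ratios were 1.93 for MEG3 TFR1 and 1.43 for GATA6-AS TFR1. TMEM50B had 1.91 with MEG3 TFR2 and 1.87 with GATA6-AS TFR1, in overlapping regions inside the gene. RIPPLY3, a transcriptional repressor gene of the Down syndrome region, had 1.75 and 1.59 in the same order. RUNX1, the gene of a blood cell transcription factor, had 1.74 with MEG3 TFR2 alone.

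With GATA6-AS TFR1 the order was TPTE, APP, PFKL, COL6A2 and PCBP3. TPTE had 3.68, a ratio of 12.8, 292 bp after a start; it lies in the bin with most control regions and has close copies elsewhere, so its placement is uncertain. Its body held 8 captured and 30 control regions of that oligo. At its far end TPTE also had a control region of that oligo (-1.48). APP, the gene of the amyloid precursor protein, had 3.53, a ratio of 11.6, 570 bp after a start, with no edge region of either MEG3 oligo. PFKL, the gene of the liver-type phosphofructokinase of glycolysis, had 3.24 near its far end with GATA6-AS TFR1. Close to its start it had 1.16 with MEG3 TFR1 and 1.25 with MEG3 TFR2. A GATA6-AS TFR1 region, at 1.30, belonged to that same locus, so PFKL had a captured locus of all 3 oligos there. COL6A2, which encodes a chain of type VI collagen, had 2.76, at -612 bp from its start, in the region that also covers part of the COL6A2-DT window printed above. PCBP3, an RNA-binding protein gene, had 2.58.

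**Figure D5:**
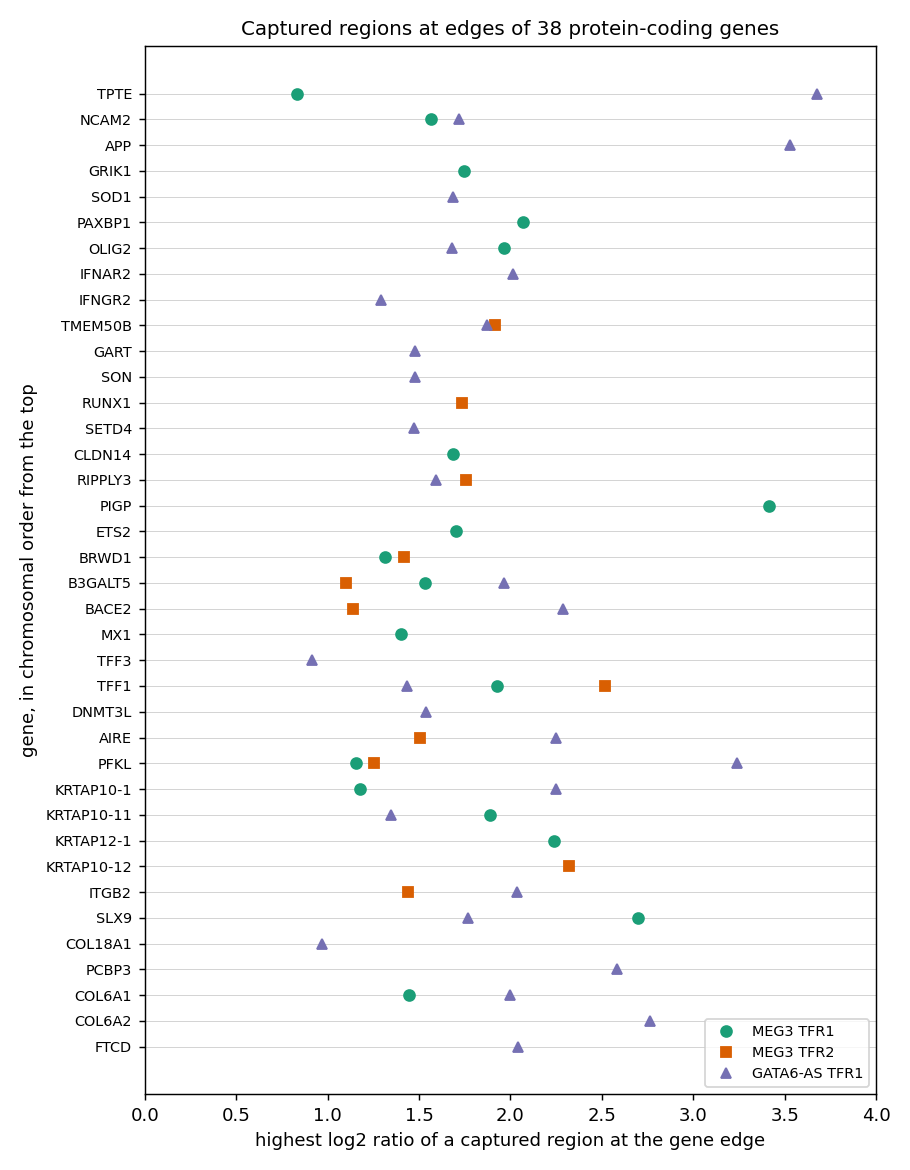
Highest log2 ratio of a captured region at the edge of each of 38 named protein-coding genes (rows, in chromosomal order from the top) for each oligo; a missing symbol means that no captured region of that oligo was at an edge. MEG3 TFR1 has symbols at 18 genes, MEG3 TFR2 at 11 and GATA6-AS TFR1 at 28.

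By gene list, 5, 4 and 6 of 19 Down syndrome region genes had a captured edge. The shares were 11.3%, 9.66% and 31.1% over all protein-coding genes of the chromosome and 28.2%, 22.3% and 46.9% over those of the genome. Of 23 genes written for this list, DSCR3, DSCR4, DSCR8 and WRB were not matched by name and were left out. So were ZNF295 and CBSL in the lists of transcription factor and metabolic genes below. B3GALT5, a glycosyltransferase gene, had all 3 (1.53 with MEG3 TFR1, 1.10 with MEG3 TFR2 and 1.97 with GATA6-AS TFR1). BACE2, a protease gene related to the main secretase of APP, had 1.14 with MEG3 TFR2 and 2.29 with GATA6-AS TFR1. Of 6 interferon receptor and response genes the counts were 1, 0 and 2: MX1, an antiviral GTPase gene, with MEG3 TFR1 (1.40), and the receptor genes IFNAR2 (2.01) and IFNGR2 (1.29) with GATA6-AS TFR1. IFNGR2 also had a control region of that oligo at its far end (-1.56); 5 genes of the chromosome had GATA6-AS TFR1 edge regions in both directions, 1 had MEG3 TFR1 ones and 0 had MEG3 TFR2 ones. Of 13 transcription factor genes they were 2, 3 and 5, among them AIRE, which drives self-antigen expression in the thymus (1.51 with MEG3 TFR2 and 2.25 with GATA6-AS TFR1), and ETS2 (1.70 with MEG3 TFR1). Of 10 chromatin and DNA methylation genes they were 1, 1 and 5, with DNMT3L, a cofactor of DNA methyltransferases in the germ line, at 1.54, and the splicing factor gene SON at 1.48, both with GATA6-AS TFR1. The SON region lies just after its start and beside that of GART, a purine synthesis gene, and was counted for both.

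Of 15 neuronal genes the counts were 4, 2 and 7, among them the adhesion gene NCAM2 (1.56 for MEG3 TFR1, 1.72 for GATA6-AS TFR1) and the kainate receptor gene GRIK1 (1.75 for MEG3 TFR1). Of 5 collagen and matrix genes they were 1, 0 and 3, the first being COL6A1, a type VI collagen gene, at 1.45 for MEG3 TFR1 and 2.00 for GATA6-AS TFR1. Of 14 metabolic and transporter genes they were 1, 2 and 5, with FTCD, a histidine breakdown enzyme gene, at 2.04 and SOD1, the superoxide dismutase gene, at 1.68, both with GATA6-AS TFR1. Of 6 trefoil and protease genes they were 1, 1 and 2, and of 3 claudin genes 1, 0 and 0, the gene being CLDN14 (1.69 with MEG3 TFR1). Every list was small, and the background shares above are those to read the counts against.

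Inside gene bodies, captured regions per gene differed between oligos, whose lists are of unequal length (949, 733 and 1221 regions). COL18A1, which encodes a basement membrane collagen, held 42 captured regions of GATA6-AS TFR1 in 109 kb, against 6 of MEG3 TFR1 and 3 of MEG3 TFR2, and no control region of any oligo. TSPEAR, a gene linked to hearing and tooth development, held 12, 9 and 38 captured and 0, 0 and 1 control regions. The distal cluster of keratin-associated protein genes lies within TSPEAR, and 7, 6 and 19 captured regions lay in that cluster's span. TRPM2, the gene of a cation channel opened by oxidative stress, held 10, 8 and 25 captured and 0, 0 and 3 control regions. KCNJ6, the gene of an inwardly rectifying potassium channel, went the other way, with 23, 20 and 12 captured regions. It also held 6, 8 and 12 control regions, so the counts were equal for GATA6-AS TFR1. DSCAM, a neuronal adhesion gene of 836 kb, had 17 captured regions with MEG3 TFR1, 1 with MEG3 TFR2 and 9 with GATA6-AS TFR1. Its control regions numbered 0, 0 and 6. PCBP3 was among the first for each oligo, with 23, 18 and 26 captured and 3, 1 and 5 control regions. These genes were those with the most captured regions for an oligo, or a part of them, and were chosen after their values were seen.

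The single largest ratios lay in regions of 150 to 450 bp, inside genes or between them. MEG3 TFR1 had its highest in BACE2, chr21:41255201-41255400, with 29.3 times more signal with the oligo, and the next 13350 bp from LINC00323, with 22.7. MEG3 TFR2 had its highest 1800 bp from LINC00158, with 10.3, followed by the serine protease gene TMPRSS2, with 10.0, and DYRK1A, with 8.87 at chr21:37378851-37379300. GATA6-AS TFR1 had its highest in LOC105377134, with 18.0, and then at 2 places in AGPAT3, a lipid acyltransferase gene, with 14.7 and 14.1. Among control regions, the largest were 13.8 times more signal without MEG3 TFR1 near MARCKSP1, 11.5 without MEG3 TFR2 in ITSN1, and 16.0 without GATA6-AS TFR1 in LINC00111. The authors' ratios were quotients of whole numbers in most regions, and what those numbers count is unknown, so the error of a single ratio is unknown.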

How the data were processed

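DNA recovered with each of 3 RNA oligos, or with none, was sequenced from 2 libraries per group. The build was hg38 and reads went through FastQC and BWA 0.7.15-r1140, per the submitters' processing notes. The sources used here do not name the region caller, its settings, the scaling of libraries or the treatment of reads with several matching places. Deposited lists give position, gene names and a log2 ratio per region. That the authors' values are log2 was read from the values: 2 to their power was a quotient of whole numbers, the divisor at most 400 and the tolerance 1e-09, for 91.3% to 99.3% of the chromosome 21 regions of a list, and e to their power for 0%. There is no value per library, so depth and replicate spread could not be computed.

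Regions were placed by midpoint in 1 Mb bins, and shares of regions at an edge also went by midpoint. Overlap was at least 1 bp. Genes, promoter windows and microRNAs came from RefSeq tables of GRCh38.p14, whose coordinates hg38 shares: 238 protein-coding genes, 183 of them with a promoter window. Rows on scaffolds were left out. An edge was 1 kb to either side of a gene end. No statistical test was made, since the chromosome was chosen by these counts. The members and gene lists were chosen with earlier results of these data known. Genes were named by rule: the 5 highest edge ratios per oligo, up to 4 per list, and genes with an edge at a locus of all 3 oligos, 38 in all. Alternatives are given at the end. The interval code was tested on simulated data. Python 3.11.15, numpy 2.4.6, pandas 2.3.3 and scipy 1.17.1 were used. No genome sequence was used, so sequences of whole captured regions are not shown.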

Additional observations from a re-analysis of the deposited data

How the results depend on the processing

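No paired analysis was possible because the lists carry no value per library; for the same reason no library could be left out. Values run from MEG3 TFR1 over MEG3 TFR2 to GATA6-AS TFR1. Of 48 alternatives, 20 stayed within the 95% Wilson interval of the main value, which covers counting error only, or within 1.5 times a main count. Captured regions per control region became 2.75, 4.15 and 2.12 among the 50% of regions with the largest ratios, 1.72, 1.24 and 1.39 by covered bases, and 6.42, 5.38 and 3.04 above 15 Mb. Leaving out a 1 Mb bin gave at most 3.73, 3.60 and 2.25, each without 10 to 11 Mb, and at least 1.49 for GATA6-AS TFR1. Among log2 ratios 1.5 or more in size, an alternative added after seeing the data, it was 3.81 for MEG3 TFR2, whereas GATA6-AS TFR1 had 1.36. The share of captured regions that overlap another oligo's became 14.29%, 23.78% and 14.48% among the largest ratios, and 17.9% for both MEG3 TFR1 and GATA6-AS TFR1 when 0.5 of the shorter region had to overlap. With edges of 5 kb, 13.4%, 14.3% and 23.4% of captured regions and 96, 77 and 135 genes were at an edge. With bins shifted by 0.5 Mb, the densest control bin held 111 regions for MEG3 TFR1 and 89 for MEG3 TFR2, while the densest captured bin of MEG3 TFR1 began at 31.5 Mb. The cause of these shifts was not tested. Depth is unknown, and below 15 Mb duplicated DNA limits how far a position can be trusted.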
